A study of Mus musculus with 15 samples.

Results

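The genes described are 39 neighbours on mouse chromosome 15, from Zfp7 to Dmc1, among the 23412 genes counted in every library. They were chosen by their position and because most of them stood lower, by about the same amount, in the Stag1-KO siGLO libraries and in no other condition. Stag1-KO siGLO against WT siGLO therefore chose the members, and for them its values and counts of calls only describe the choice. Since the choice also asked that the other conditions be unlike Stag1-KO siGLO, member medians near 0 and low counts of calls in the other comparisons are descriptions too, and nothing is read from them. All 39 are protein-coding in the GENCODE annotation of mm10, where they lie between chr15:76879259 and chr15:79605109, a stretch of 2.73 Mb. In all, 38 members passed the expression filter (10 or more counts in enough libraries) and Rac2 did not, while 14508 of all genes passed it.

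The study asked what the cohesin subunits STAG1 and STAG2 each do in mouse embryonic stem cells (mESCs). PolyA RNA was sequenced from 5 conditions with 3 libraries each, all from the male v6.5 line. Every culture was transfected, at 50 nM and 48 h before harvest, either with siGLO, a control that targets no gene, or with an siRNA pool against Stag1. The conditions were WT siGLO, Stag1-KO siGLO (homozygous CRISPR deletion in Stag1), Stag2-KO siGLO (homozygous CRISPR deletion in Stag2), WT siStag1 and Stag2-KO siStag1, which lacks STAG2 and has STAG1 knocked down. Each knockout genotype was 1 clone, so its genotype and whatever else that clone carries cannot be told apart, and the 3 libraries of a knockout are replicates of that clone.

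Cohesin is a ring-shaped complex that holds sister chromatids together and extrudes chromatin loops, and its ring binds either STAG1 or STAG2. Genes next to each other on a chromosome can share a loop domain and its enhancers, and they also share 1 piece of DNA, so a gain or loss of that piece changes the dose of all of them. Cultured stem cells are known to acquire such gains and losses, and a clone grown from 1 cell carries whatever that cell carried. DNA copy number was not measured in these libraries, and its part in the values was not tested.

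The libraries held 14982560 to 19070126 counts on genes, with a median of 17700059. Stag1 RNA stood at 2288, 2137 and 2012 normalized counts (counts scaled to 1 common depth by the trimmed mean of M-values, TMM) in WT siGLO and 1826, 2368 and 1875 in Stag1-KO siGLO, a log2 fold change of -0.09 (SE 0.13, edgeR quasi-likelihood adjusted p = 0.728). The count covers the whole gene rather than the deleted stretch, so it does not check the deletion. The paper reports an in-frame deletion in this clone, with a normal level of the transcript and no STAG1 protein seen by western blot. Under siStag1 the Stag1 RNA fell by 2.28 on the log2 scale in WT (adjusted p = 2.58e-07) and fell by 1.53 in Stag2-KO (adjusted p = 6.68e-06), and Stag2 fell by 1.75 in Stag2-KO siGLO (adjusted p = 4.34e-07). All 8 mESC markers examined, among them Pou5f1, Sox2 and Nanog, were counted, with a summed level of 107000 to 112000 in WT siGLO and 89400 to 103000 in Stag1-KO siGLO. The summed level of 4 endoderm markers (Gata4, Gata6, Sox17 and Foxa2) was 1670 to 1890 in WT siGLO, 176 to 280 in Stag1-KO siGLO and 249 to 476 in Stag2-KO siGLO. Fewer cells of a type and less RNA per cell cannot be told apart in bulk RNA, and the part of these cells in the member values was not tested.

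In map order the members fell into a first stretch of 5, Zfp7, Commd5, Rpl8, Rbfox2 and Myh9, and a second stretch of 34 from Txn2 to Dmc1. The split was placed after the fold changes were seen, so the values on either side of it are descriptions. The 5 genes of the first stretch had log2 fold changes of -0.16 to 0.11 in Stag1-KO siGLO against WT siGLO, with a median of -0.09, so the lower level named in the choice of the list was not seen in them. Over the 33 tested members from Txn2 to Dmc1 the median was -0.73, which is 60.15% of the WT siGLO level, and 31 of the 33 were below 0. Of these, 24 lay between -1.1 and -0.5, 3 were lower (Cyth4, H1f0 and Kdelr3) and 6 were higher (Kctd17, Mfng, Card10, Lgals1, Triobp and Baiap2l2). For all 38 tested members the median was -0.71 and 34 were below 0, while the median over all genes tested was -0.01.

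**Figure D1:**
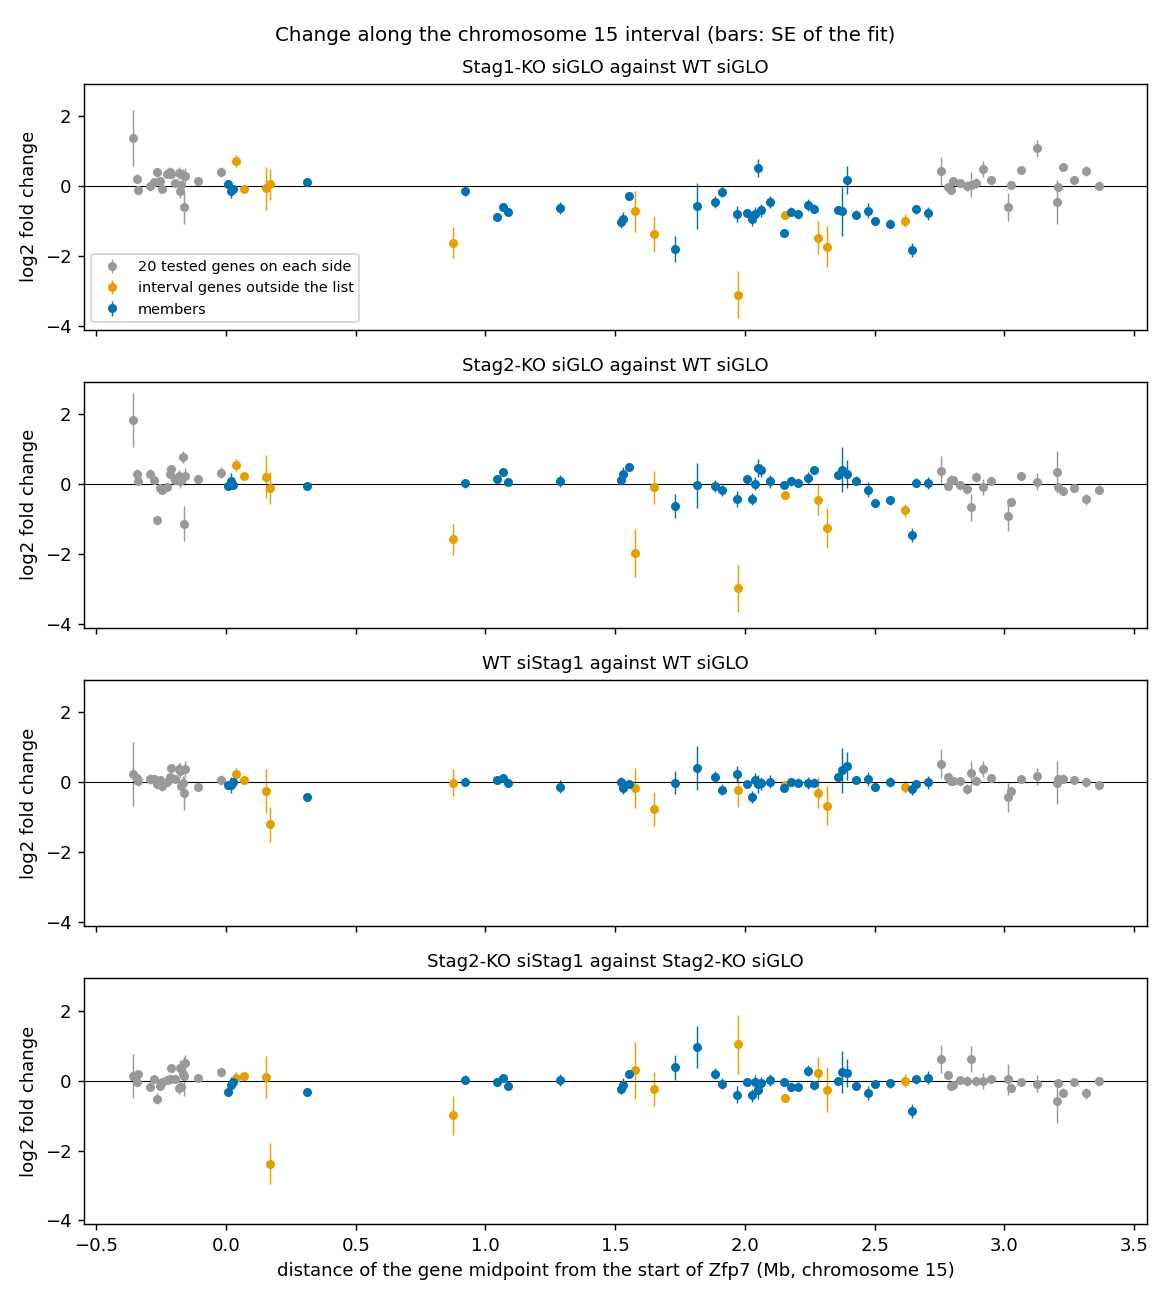
Log2 fold change (vertical axis) of members, other tested genes of the interval, and 20 tested genes on each side, against the distance of the gene midpoint from the start of Zfp7 in Mb, in 4 comparisons, with bars for the SE of the fit. In Stag1-KO siGLO against WT siGLO most blue points from Txn2 to Dmc1 lie near the median of -0.73, and in the other panels the members' medians are 0.06, -0.01 and -0.06.

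The first edge was placed after these values were seen and the other is the end of the list, so both only describe the choice. The step at the first edge lay between Myh9, at -0.16 (SE 0.13), and Txn2, at -0.88 (SE 0.12), whose annotated ends are 0.073 Mb apart. Apol8, a gene outside the list with few counts, lies just before Myh9 and stood at -1.62 (SE 0.43). At the other edge Dmc1 stood at -0.78 (SE 0.18), and the next genes were Fam227a at 0.42 (SE 0.41), Cby1 at -0.04 (SE 0.11), Tomm22 at -0.11 (SE 0.12) and Josd1 at 0.13 (SE 0.078). Fam227a had a mean of only 21.9 normalized counts in WT siGLO, and Cby1 begins 0.054 Mb beyond the end of Dmc1. Before Zfp7, Zfp251 was at 0.40 (SE 0.15), Arhgap39 at 0.14 (SE 0.10), C030006K11Rik at 0.29 (SE 0.23) and Lrrc24 at -0.61 (SE 0.48, mean 15.7 normalized counts in WT siGLO). The 20 tested genes before Zfp7 had a median of 0.17 and the 20 after Dmc1 a median of 0.08, which was 0.04 without Stag1-KO siGLO replicate 1 and 0.15 without Stag1-KO siGLO replicate 2. Over all tested genes of chromosome 15, these included, the median was 0.02 for the 243 before Zfp7 and 0.06 for the 278 after Dmc1.

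The promoters of the genes on either side of the first edge, of the lowest member and of the last member are shown as the sequence in which these neighbours can be compared. RefSeq (GRCm38.p6) gave a promoter for 28 of the 39 members, and each sequence below is the 250 bases before the annotated start, 5′ to 3′ on the gene's own strand, with each GC box (GGGCGG, or CCGCCC on the other strand) in capitals. They are Myh9 at chr15:77842176-77842425 (minus strand), Txn2 at chr15:77928995-77929244 (minus), Kdelr3 at chr15:79516158-79516407 (plus) and Dmc1 at chr15:79605110-79605359 (minus).
Myh9: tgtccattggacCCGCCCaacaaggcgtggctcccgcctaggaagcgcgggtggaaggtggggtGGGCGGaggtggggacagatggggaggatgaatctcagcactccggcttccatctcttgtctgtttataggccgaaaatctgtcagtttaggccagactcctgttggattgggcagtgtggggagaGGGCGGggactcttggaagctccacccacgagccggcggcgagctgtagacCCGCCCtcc
Txn2: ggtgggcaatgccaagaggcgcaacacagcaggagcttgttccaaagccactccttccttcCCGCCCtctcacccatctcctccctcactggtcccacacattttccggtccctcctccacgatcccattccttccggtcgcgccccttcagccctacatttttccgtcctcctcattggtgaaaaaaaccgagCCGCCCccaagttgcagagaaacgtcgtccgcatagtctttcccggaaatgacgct
Kdelr3: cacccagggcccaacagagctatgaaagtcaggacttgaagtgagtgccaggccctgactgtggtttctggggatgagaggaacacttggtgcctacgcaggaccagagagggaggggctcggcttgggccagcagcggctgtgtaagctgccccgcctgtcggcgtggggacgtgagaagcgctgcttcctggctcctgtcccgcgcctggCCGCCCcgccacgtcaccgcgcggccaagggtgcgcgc
Dmc1: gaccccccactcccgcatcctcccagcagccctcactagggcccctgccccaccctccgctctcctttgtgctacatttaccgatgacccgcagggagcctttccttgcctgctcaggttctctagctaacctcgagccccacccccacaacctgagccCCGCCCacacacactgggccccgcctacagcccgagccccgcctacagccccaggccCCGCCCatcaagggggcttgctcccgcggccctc

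The GC box, the letters bound by SP family factors, occurred 4 times in the Myh9 promoter, 2 times in those of Txn2 and Dmc1 and 1 time in that of Kdelr3, so it was present on both sides of the edge. Among the 28 member promoters 17 held it (60.7%), against 32.9% of 27025 RefSeq promoters searched on both strands over the same length. The TATAAA motif was found in 3 members (10.7%, against 13.0%), CCAAT in 9 (32.1%, against 34.5%) and the E-box CACGTG in 1 (3.57%, against 6.05%). The median GC content was 58.8% in member promoters and 52.0% in all promoters, and the median number of CG dinucleotides was 15 against 6. These letters describe the windows and are not evidence of bound sites. The 27025 promoters were not limited to genes that passed the expression filter, whereas every member but Rac2 passed it. The differences in GC box, GC content and CG number are therefore not read as particular to these members.

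By library, the median log2 ratio of the 38 members to the WT siGLO mean was -0.60, -0.84 and -0.65 in the 3 Stag1-KO siGLO libraries and lay between -0.09 and 0.10 in the other 12. Stag1-KO siGLO replicate 2 was the lowest. Counted as a share of all gene counts, the members from Txn2 to Dmc1 made up 0.242 to 0.261% in WT siGLO and 0.145 to 0.155% in Stag1-KO siGLO. The same share was 0.237 to 0.268% in the other 3 conditions, and no library of another condition reached the Stag1-KO siGLO range. The choice of the members asked for this separation, here and in the values of single members below. In the first stretch of 5 members, the 3 Stag1-KO siGLO libraries had medians of -0.02, 0.01 and -0.02 on the same scale.

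**Figure D2:**
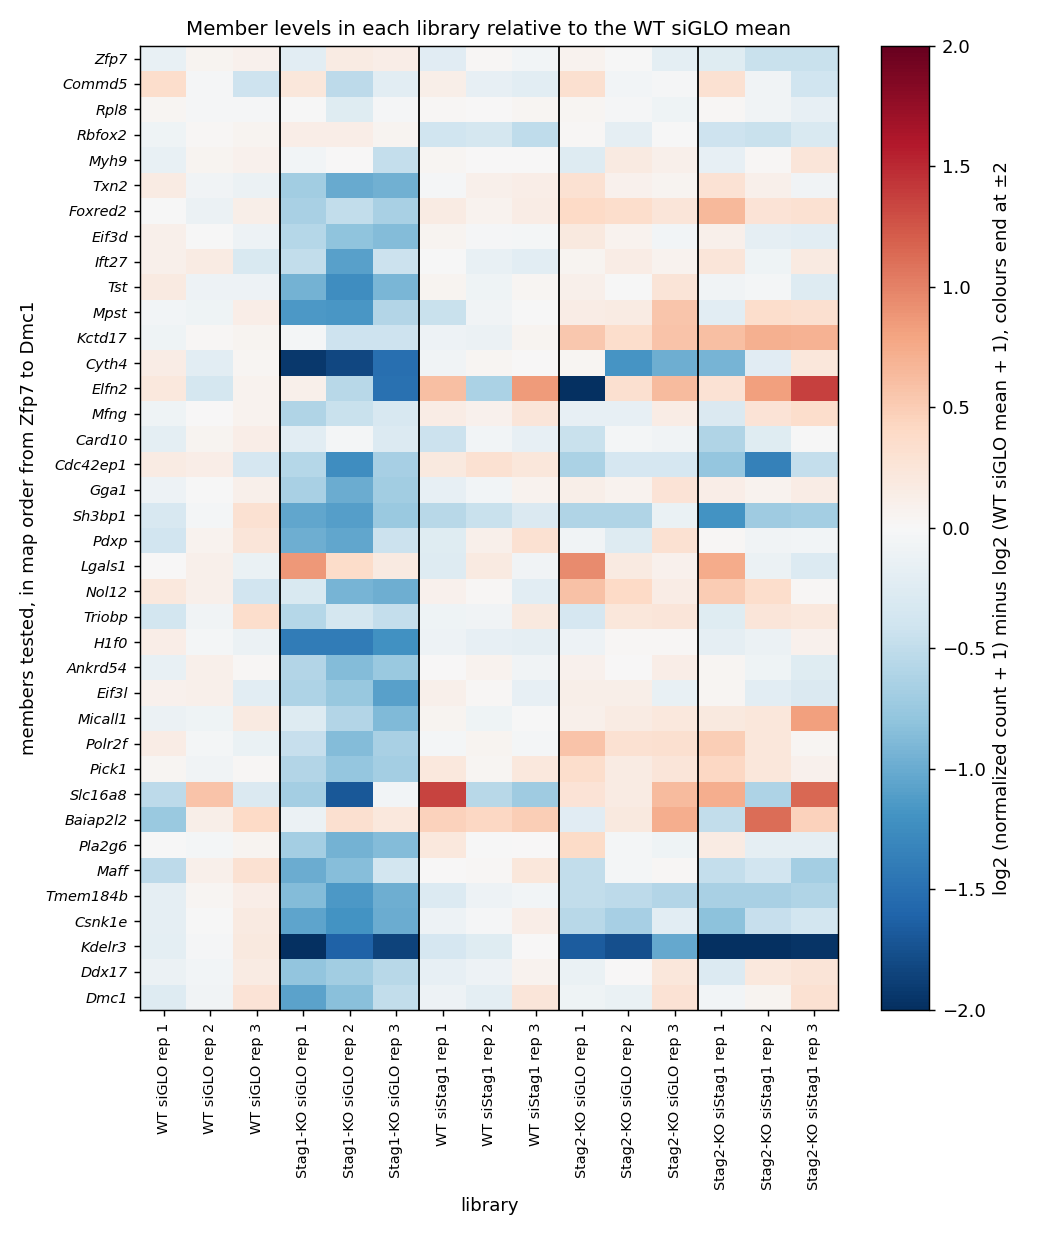
Each row is a tested member in map order and each column a library, and the colour is log2 (normalized count + 1) minus log2 (mean WT siGLO normalized count + 1). The 3 Stag1-KO siGLO columns turn blue from Txn2 downwards, with library medians of -0.60, -0.84 and -0.65 over all rows, while the Kdelr3 row is also blue in Stag2-KO siGLO and Stag2-KO siStag1.

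Of the 38 tested members, 26 (68.4%) passed an adjusted p of 0.1 as lower in Stag1-KO siGLO against WT siGLO (edgeR quasi-likelihood, Benjamini-Hochberg over all genes), where the share of all genes tested was 9.93%. None passed as higher, as was also the case at an unadjusted p under 0.05 and with DESeq2, against 10.1% of all genes. Blocking on the replicate number gave 28 lower and 1 higher, the latter being Lgals1, where 15.3% of all genes were called lower and 15.3% higher under the block. The libraries of both conditions did not overlap, with Stag1-KO siGLO lower, for 24 members, against 15.9% of all genes. Since this contrast chose the members, nothing is read from these counts. Against Stag2-KO siGLO, which shares the Stag1-KO libraries, 25 members passed as lower (12.9% of all genes) and the member median was -0.73. With the replicate number as a block, Kdelr3 (adjusted p = 0.0575, edgeR, and 0.203 without the block) and Mfng (0.036, and 0.106 without it) passed there as well. Over all 14508 genes tested, the calls in either direction rose there too, from 3722 to 5416.

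Of the members that act on RNA and in translation, 4 had the highest levels of all members. Per kb of exon, Rpl8, a protein of the large ribosomal subunit, stood at 22380 normalized counts in WT siGLO. It was followed by Eif3l at 1826, Ddx17 at 1455 and Eif3d at 1370, each per kb. The median log2 fold change over the 7 members of this group was -0.67 in Stag1-KO siGLO against WT siGLO.

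Rpl8 counts were 31390, 29920 and 29910 in WT siGLO and 30090, 25750 and 29990 in Stag1-KO siGLO, a log2 fold change of -0.09, SE 0.075 that ran from -0.13 to -0.02 without single libraries. In the remaining libraries Rpl8 stood at 30920, 30500 and 31290 (WT siStag1), 31320, 29910 and 28790 (Stag2-KO siGLO) and 30770, 29080 and 27270 (Stag2-KO siStag1). Each condition overlapped with WT siGLO for this gene, which lies in the first stretch. Eif3d, a subunit of the translation initiation factor eIF3 that can bind the mRNA cap, gave 7337, 6737 and 6348 in WT siGLO and 4598, 3894 and 3742 in Stag1-KO siGLO, or -0.74, SE 0.10 on the log2 scale. Its levels were 7053, 6662 and 6609 in WT siStag1, 7821, 7149 and 6526 in Stag2-KO siGLO and 7291, 6021 and 5864 in Stag2-KO siStag1. The highest Stag1-KO siGLO library was below the lowest library of every other condition. For Eif3l, another eIF3 subunit, the WT siGLO libraries held 7073, 7108 and 5749 and the Stag1-KO siGLO libraries 4326, 3914 and 3140, giving -0.81, SE 0.13. WT siStag1 held 7156, 6744 and 5936, Stag2-KO siGLO 7189, 7169 and 6019 and Stag2-KO siStag1 6827, 5755 and 5417. Again the Stag1-KO siGLO libraries lay below all 12 others.

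Ddx17, a DEAD-box RNA helicase, had 10260, 10670 and 12430 normalized counts in WT siGLO and 6409, 6899 and 7597 in Stag1-KO siGLO, for a log2 fold change of -0.67, SE 0.13. The other conditions held 9968, 10410 and 11620 (WT siStag1), 10150, 11210 and 13000 (Stag2-KO siGLO) and 9196, 12810 and 13260 (Stag2-KO siStag1), all above the Stag1-KO siGLO libraries. Polr2f, a subunit shared by RNA polymerases I, II and III, went from 1617, 1413 and 1329 in WT siGLO to 1057, 794 and 928 in Stag1-KO siGLO (-0.65, SE 0.13). Polr2f stood at 1408, 1511 and 1410 in WT siStag1, 2148, 1789 and 1822 in Stag2-KO siGLO and 2043, 1709 and 1488 in Stag2-KO siStag1, with the Stag1-KO siGLO libraries lowest. Part of the exons of Polr2f and Micall1 overlaps 1700088E04Rik on the opposite strand, and since the strand setting of the counting is not given in the sources used here, reads there cannot be assigned with certainty. Nol12, a nucleolar RNA-binding protein, stood at -0.70, SE 0.20.

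Rbfox2, a regulator of alternative splicing, lies in the first stretch and was not lower in Stag1-KO siGLO, where it gave 4232, 4220 and 4007 against 3638, 3921 and 4006 in WT siGLO (0.11, SE 0.077, and 0.067 to 0.14 without single libraries). It was 2921, 3006 and 2704 in WT siStag1, 3923, 3421 and 3838 in Stag2-KO siGLO and 2900, 2823 and 3117 in Stag2-KO siStag1. Both siStag1 conditions lay below every library without siStag1.

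Among members that act on chromatin, transcription and meiosis, H1f0, the replacement linker histone H1.0, showed the clearest separation. It held 1396, 1240 and 1177 normalized counts in WT siGLO and 483, 479 and 550 in Stag1-KO siGLO, -1.33, SE 0.097 on the log2 scale and 39.7% of the WT level. In WT siStag1 H1f0 was at 1182, 1129 and 1120, in Stag2-KO siGLO at 1186, 1297 and 1294 and in Stag2-KO siStag1 at 1127, 1168 and 1354. The lowest of those 9 libraries exceeded the highest Stag1-KO siGLO library. Zfp7, a zinc finger protein at the start of the interval, had 1053, 1214 and 1234 in WT siGLO and 1008, 1309 and 1281 in Stag1-KO siGLO (0.04, SE 0.11), a value that ran from -0.03 to 0.15 without single libraries. The same gene was at 1001, 1187 and 1124 in WT siStag1, 1219, 1158 and 1016 in Stag2-KO siGLO and 985, 860 and 852 in Stag2-KO siStag1. Its transcripts share an exact stretch of 100 bases or more with those of 7 other genes, so its counts are less certain. Dmc1, the meiotic recombinase at the end of the interval, held 345, 394 and 502 in WT siGLO and 197, 232 and 294 in Stag1-KO siGLO (-0.78, SE 0.18), and those libraries did not overlap. Maff, a small MAF transcription factor, was at -0.71, SE 0.20, and its libraries overlapped.

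**Figure D3:**
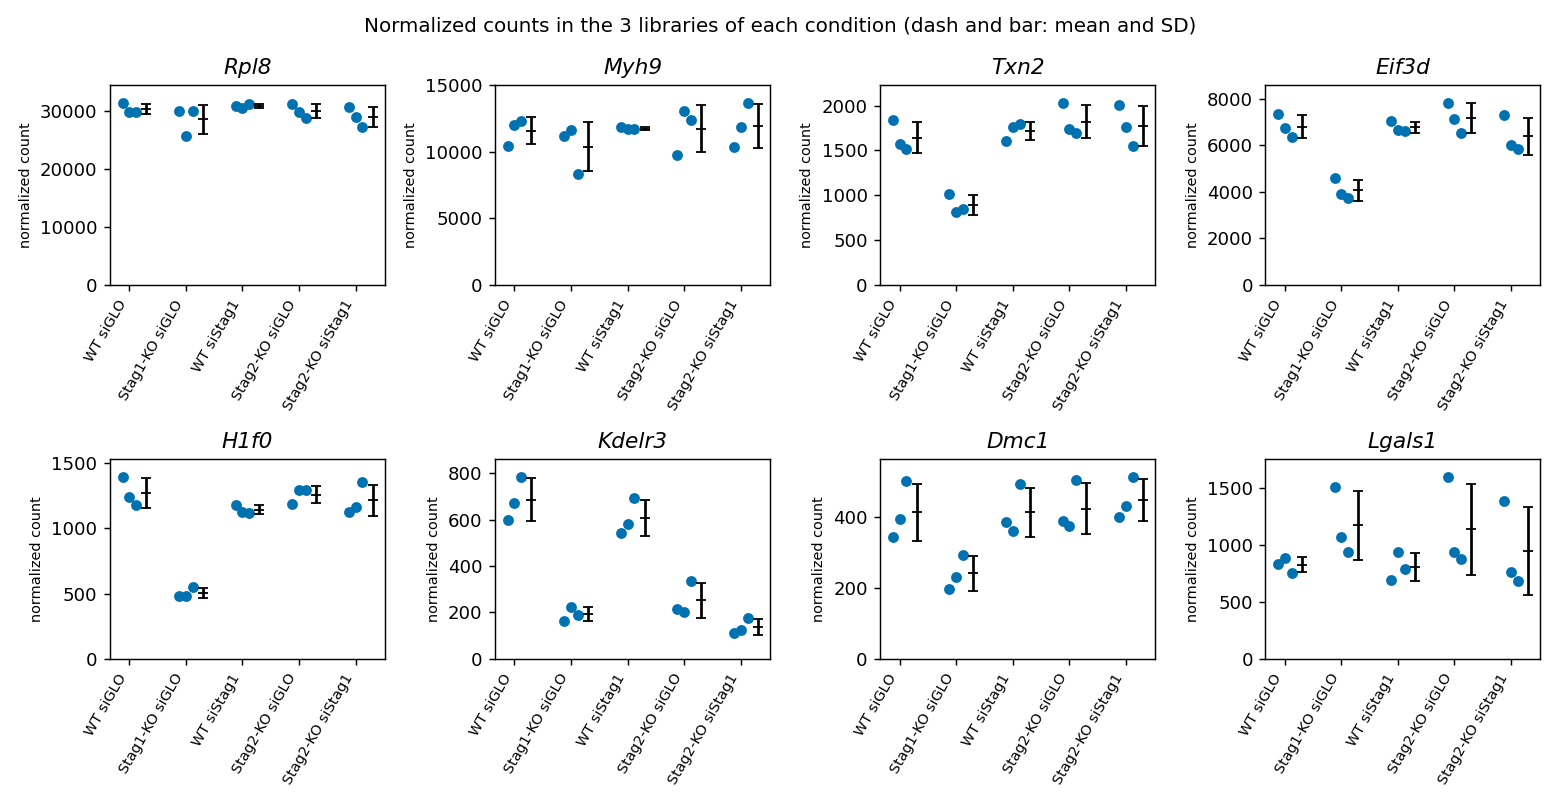
Normalized counts (vertical axis, starting at 0) of 8 members in the 3 libraries of each condition, with dashes and bars for the mean and SD. In Stag1-KO siGLO, Txn2, Eif3d, H1f0 and Dmc1 lie below all other conditions, Rpl8 and Myh9 overlap with WT siGLO, and Kdelr3 is also low in Stag2-KO siGLO and Stag2-KO siStag1.

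The metabolic and transport members had a median of -0.86 over 6 genes, all of them between -1.04 and -0.60. Txn2, the mitochondrial thioredoxin, stood at 1836, 1569 and 1514 in WT siGLO and 1016, 811 and 843 in Stag1-KO siGLO (-0.88, SE 0.12). Elsewhere it was at 1606, 1764 and 1790 (WT siStag1), 2027, 1741 and 1695 (Stag2-KO siGLO) and 2008, 1757 and 1554 (Stag2-KO siStag1). No library of these 12 came down to the Stag1-KO siGLO range. Tst, a mitochondrial thiosulfate sulfurtransferase, gave 180, 148 and 148 in WT siGLO and 81.7, 66.2 and 84.1 in Stag1-KO siGLO (-1.04, SE 0.15). WT siStag1 gave 164, 149 and 164, Stag2-KO siGLO 170, 157 and 190 and Stag2-KO siStag1 152, 155 and 132. Its neighbour Mpst, which encodes mercaptopyruvate sulfurtransferase, was at -0.94, SE 0.19, and for both genes the Stag1-KO siGLO and WT siGLO libraries were apart.

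Pla2g6, a calcium-independent phospholipase, held 1426, 1398 and 1488 in WT siGLO and 896, 746 and 785 in Stag1-KO siGLO (-0.83, SE 0.13). It was 1663, 1427 and 1438 in WT siStag1, 1869, 1399 and 1357 in Stag2-KO siGLO and 1606, 1274 and 1267 in Stag2-KO siStag1, all above Stag1-KO siGLO. Foxred2, a flavoprotein of the endoplasmic reticulum, went from 387, 358 and 425 in WT siGLO to 248, 276 and 249 in Stag1-KO siGLO (-0.60, SE 0.12). Foxred2 stood at 435, 408 and 434 in WT siStag1, 516, 500 and 461 in Stag2-KO siGLO and 611, 469 and 484 in Stag2-KO siStag1, so that both Stag2-KO conditions lay above WT siGLO. Slc16a8, a monocarboxylate transporter, was counted at only 1.95 to 23.3 normalized counts and its value of -0.73, SE 0.71 is imprecise, running from -1.27 without Stag1-KO siGLO replicate 3 to -0.29 without WT siGLO replicate 2.

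All 7 members that act in membrane trafficking and cilia were lower in Stag1-KO siGLO, from -1.84 to -0.56 with a median of -0.77. Kdelr3, a receptor that returns escaped proteins to the endoplasmic reticulum, was the lowest, at 600, 673 and 784 in WT siGLO and 162, 223 and 190 in Stag1-KO siGLO (-1.84, SE 0.20). It stood at 542, 581 and 693 in WT siStag1, 216, 202 and 337 in Stag2-KO siGLO and 112, 124 and 176 in Stag2-KO siStag1. Kdelr3 was thus low in every library of both knockout clones and overlapped with WT siGLO only in WT siStag1. Cyth4, an exchange factor for ARF GTPases with few counts, gave 44.9, 34.6 and 41.6 in WT siGLO and 9.84, 10.7 and 13.6 in Stag1-KO siGLO (-1.81, SE 0.38). Its levels of 38.5, 41.4 and 40.6 in WT siStag1, 41.3, 17.2 and 20.1 in Stag2-KO siGLO and 20.7, 34.3 and 47.5 in Stag2-KO siStag1 were all above the Stag1-KO siGLO libraries. Tmem184b, a transmembrane protein, stood at 1118, 1305 and 1394 in WT siGLO and 695, 570 and 648 in Stag1-KO siGLO (-0.996, SE 0.10). The remaining libraries held 1050, 1180 and 1224 (WT siStag1), 907, 888 and 847 (Stag2-KO siGLO) and 813, 807 and 839 (Stag2-KO siStag1). Tmem184b was thus intermediate in both Stag2-KO conditions. Gga1, a clathrin adaptor of the Golgi, was at -0.77, SE 0.10, Pick1, a PDZ and BAR domain protein, at -0.68, SE 0.10, Ift27, a small GTPase of the ciliary transport complex IFT-B, at -0.64, SE 0.18, and Micall1, a protein of recycling endosomes, at -0.56, SE 0.17.

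Myh9, the heavy chain of non-muscle myosin IIA and the last gene of the first stretch, was at 10420, 12020 and 12330 in WT siGLO and 11210, 11650 and 8308 in Stag1-KO siGLO (-0.16, SE 0.13), a value that ran from -0.25 without Stag1-KO siGLO replicate 2 to -0.02 without Stag1-KO siGLO replicate 3. Its other values were 11860, 11680 and 11680 in WT siStag1, 9744, 13060 and 12410 in Stag2-KO siGLO and 10390, 11830 and 13660 in Stag2-KO siStag1. All conditions overlapped with WT siGLO. Sh3bp1, a GTPase-activating protein, held 422, 513 and 649 in WT siGLO and 257, 246 and 314 in Stag1-KO siGLO (-0.95, SE 0.18). Sh3bp1 was at 360, 386 and 433 in WT siStag1, 349, 347 and 479 in Stag2-KO siGLO and 231, 321 and 329 in Stag2-KO siStag1, with the last condition also below all WT siGLO libraries. Baiap2l2, a membrane-bending I-BAR protein, had low counts of 13.1, 24.4 and 30.0 in WT siGLO and 20.7, 28.2 and 26.2 in Stag1-KO siGLO (0.16, SE 0.40). Elsewhere Baiap2l2 stood at 31.5, 30.4 and 31.9 (WT siStag1), 19.0, 25.9 and 38.0 (Stag2-KO siGLO) and 15.8, 49.9 and 31.4 (Stag2-KO siStag1), and without WT siGLO replicate 1 its value in Stag1-KO siGLO was -0.12, and 0.42 without WT siGLO replicate 3. Cdc42ep1, a CDC42 effector, was at -0.81, SE 0.23, Pdxp, a phosphatase that acts on cofilin and pyridoxal phosphate, at -0.79, SE 0.20, and Triobp, an actin-bundling protein, at -0.46, SE 0.18. Triobp was at -0.25 without WT siGLO replicate 3 and at -0.62 without WT siGLO replicate 1. Rac2, a small GTPase best known from blood cells, was not tested, with 8.41, 5.08 and 7.74 normalized counts in WT siGLO and 4.92, 6.81 and 0.904 in Stag1-KO siGLO.

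Members with roles in signalling had the widest range of values, from -1.08 to 0.51 with a median of -0.37. Csnk1e, casein kinase 1 epsilon, which acts in the circadian clock and Wnt signalling, held 1923, 2172 and 2466 in WT siGLO and 1051, 957 and 1095 in Stag1-KO siGLO (-1.08, SE 0.14). In WT siStag1 it was 2047, 2157 and 2397, in Stag2-KO siGLO 1494, 1374 and 1891 and in Stag2-KO siStag1 1232, 1584 and 1696. All Stag2-KO libraries of Csnk1e lay between the Stag1-KO siGLO and the WT siGLO libraries. Lgals1, the secreted lectin galectin-1, was the highest member at 0.51, SE 0.26 (0.28 without Stag1-KO siGLO replicate 1), with 835, 889 and 755 in WT siGLO and 1514, 1071 and 936 in Stag1-KO siGLO. Lgals1 stood at 690, 936 and 786 in WT siStag1, 1600, 935 and 880 in Stag2-KO siGLO and 1390, 760 and 684 in Stag2-KO siStag1. In each condition that included a knockout, replicate 1 stood above its other libraries. Kctd17, a ubiquitin ligase adaptor, held 378, 410 and 418 in WT siGLO and 391, 301 and 301 in Stag1-KO siGLO (-0.28, SE 0.12). It was 376, 372 and 419 in WT siStag1, 583, 514 and 596 in Stag2-KO siGLO and 610, 658 and 648 in Stag2-KO siStag1, both Stag2-KO conditions being above WT siGLO.

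Of the other signalling members, Mfng, a glycosyltransferase that modifies Notch, was at -0.46, SE 0.17 and Ankrd54, an ankyrin repeat protein, at -0.73, SE 0.12. Card10, a scaffold of NF-kB signalling, was at -0.17, SE 0.15, and Commd5, a COMM domain protein of the first stretch, at -0.14, SE 0.22. Both overlapped with WT siGLO. Without single libraries Card10 ran from -0.26 to -0.10 and Commd5 from -0.36 to 0.07, above 0 without WT siGLO replicate 1 or Stag1-KO siGLO replicate 2. Elfn2, a leucine-rich repeat membrane protein, had at most 32.4 normalized counts in any library and stood at -0.57, SE 0.67, running from -1.06 (without Stag1-KO siGLO replicate 1) to -0.21 (without Stag1-KO siGLO replicate 3).

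The 16 less abundant of the 33 tested members from Txn2 to Dmc1 had a median of -0.72 and the 17 more abundant a median of -0.77. The interval also held 36 annotated genes outside the list, of which 12 were tested and 24 had at most 10 counts in every library. Gcat, an enzyme of threonine breakdown, had 1137, 1153 and 1122 in WT siGLO and 668, 670 and 577 in Stag1-KO siGLO (-0.83, SE 0.097), and Kcnj4, a potassium channel, 118, 142 and 162 and 70.9, 73.0 and 67.8 (-0.99, SE 0.19). Both lie between Txn2 and Dmc1 and stood apart from WT siGLO. The other 5 tested genes there had few counts: C1qtnf6 was at -1.38 (SE 0.51), Sox10 at -1.48 (SE 0.48), Gm10863 at -1.74 (SE 0.59) and Tmprss6 at -0.73 (SE 0.60), and Lgals2 had 13.1, 16.3 and 6.78 in WT siGLO and 1.97, 1.95 and 0 in Stag1-KO siGLO. Before Txn2, Zfp647 was at 0.72 (SE 0.17), 1110038F14Rik at -0.08 (SE 0.11), Mb at -0.07 (SE 0.62), Apol6 at 0.04 (SE 0.45) and Apol8, with few counts, at -1.62 (SE 0.43).

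The 12 genes had a median of -0.91 in Stag1-KO siGLO against WT siGLO, with 7 called lower and 1 higher, where 9.93% and 10.1% of all genes were. In the other clone, several of them were low as well. Their median in Stag2-KO siGLO against WT siGLO was -0.38, with 5 called lower, where 14.4% of all genes tested were, and 1, Zfp647, higher (13.9% of all genes). Kcnj4 fell by 0.75 (SE 0.19, adjusted p = 0.0103, edgeR), with 62.4, 98.1 and 89.7 in the libraries, and Gcat by 0.32 (SE 0.096, adjusted p = 0.0263), with 819, 1005 and 904. Lgals2, at 2.12, 1.08 and 1.06, Apol8 and Tmprss6 were also called lower, all with few counts. None of them reached 10 counts in a Stag2-KO siGLO library, so they passed the filter through other conditions. In Stag2-KO siStag1 against WT siGLO the median was -0.79, with 7 called lower (21.3% of all genes) and 2 higher (22.6%). There Gcat stood at 683, 662 and 584 and fell by 0.82 (SE 0.097, adjusted p = 9.3e-06, edgeR), beside -0.83 in Stag1-KO siGLO, and Kcnj4 fell by 0.75 (SE 0.19, adjusted p = 0.00508). The lower level of Gcat and Kcnj4 was therefore seen in both knockout clones. Lgals2 was low in both too, but it reached 10 counts only in WT libraries, so its lower value follows from passing the filter. The counts of genes called lower include such genes, and nothing is read from those counts. These comparisons share the WT siGLO libraries.

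In WT siStag1 against WT siGLO the member median was -0.01, equal to 99.5% of the control level, a value that the choice of the members bears on. Rbfox2 was the only member called: it fell by 0.42 (SE 0.078, adjusted p = 0.0379, edgeR quasi-likelihood test), in 3 of 3 libraries. Sh3bp1 had as low a value, -0.42 (SE 0.18), with an adjusted p of 0.702 (edgeR) and overlapping libraries. That was 1 of 38 members, where 0.145% of all genes tested were called lower and 0.248% in either direction. Mfng, Cdc42ep1 and Baiap2l2 had all 3 siStag1 libraries above WT siGLO, against 7.45% of all genes, without passing the test. No member was called higher by edgeR (0.103% of all genes), none at an unadjusted p under 0.05 and none by DESeq2. Members from Txn2 to Dmc1 had a median of -0.01 and a range of -0.42 to 0.47. Of 6 fits that each left out 1 library, only that without WT siGLO replicate 1 kept the Rbfox2 call: its adjusted p was 0.205 without WT siGLO replicate 2, 0.203 without WT siGLO replicate 3, and 0.193, 0.218 and 0.233 without WT siStag1 replicates 1, 2 and 3. With the replicate number as a block, 236 rather than 36 genes were called in all, 0.896% of all genes as lower, and Rbfox2 was again the only member.

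Both Stag2-KO conditions differed from WT siGLO in marker levels. The summed level of the 8 mESC markers was 84300 to 102000 in Stag2-KO siGLO and 63900 to 83000 in Stag2-KO siStag1, all below WT siGLO. That of 3 neural markers (Pax6, Nes and Sox1) was 1100 to 1360 in WT siGLO, 1540 to 3160 in Stag2-KO siGLO and 2190 to 4100 in Stag2-KO siStag1. In Stag2-KO siStag1 the 4 endoderm markers summed to 251 to 414, against 1670 to 1890 in WT siGLO. There, 3 mesoderm markers (T, Mixl1 and Eomes) summed to 127 to 159, against 208 to 317 in WT siGLO. The sum of 3 trophoblast markers (Cdx2, Eomes and Elf5) was 84.3 to 112, against 198 to 310 in WT siGLO. Eomes is in both lists, so these sums are not independent of each other. In Stag2-KO siGLO the mesoderm and trophoblast sums overlapped with WT siGLO. The part of these marker levels in the member values of the comparisons with Stag2-KO was not tested.

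In Stag2-KO siGLO against WT siGLO the members had a median of 0.06, with 7 of 38 called, where 28.3% of all genes tested were called. Kdelr3 fell by 1.45 (SE 0.20, adjusted p = 0.000138, edgeR), Tmem184b by 0.53 (SE 0.099, adjusted p = 0.0015) and Csnk1e by 0.46 (SE 0.13, adjusted p = 0.0226). These 3 lie within 0.17 Mb of each other near the end of the interval, and all their Stag2-KO siGLO libraries were below those of WT siGLO, which was so for 18.5% of all genes. Kcnj4, outside the list, lies between Csnk1e and Kdelr3 and also fell, by 0.75 (adjusted p = 0.0103, edgeR). Their nearness was seen after the calls, and its part in the values was not tested. Kctd17 rose by 0.49 (SE 0.11, adjusted p = 0.00681, edgeR), Polr2f by 0.40 (SE 0.12, adjusted p = 0.0317), Foxred2 by 0.34 (SE 0.12, adjusted p = 0.0511) and Pick1 by 0.26 (SE 0.099, adjusted p = 0.079). The share of all genes called was 14.4% lower and 13.9% higher, beside 7.89% and 10.5% of the tested members. The calls for Kdelr3, Tmem184b and Kctd17 held in every fit that left out 1 library. That for Csnk1e was lost without WT siGLO replicate 3 (adjusted p = 0.104, edgeR) or Stag2-KO siGLO replicate 2 (0.105). Polr2f was lost without WT siGLO replicate 2 (adjusted p = 0.108, edgeR) or 3 (0.123) or Stag2-KO siGLO replicate 1 (0.112), and Foxred2 without WT siGLO replicate 2 (0.189) or Stag2-KO siGLO replicate 1 (0.125) or 2 (0.121). Pick1 was lost without any 1 of the 6 libraries but Stag2-KO siGLO replicate 2, with an adjusted p of 0.101 to 0.235 (edgeR).

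When Stag1 was knocked down in Stag2-KO cells, the members had a median of -0.06 against Stag2-KO siGLO. Rbfox2 fell by 0.34 (SE 0.078, adjusted p = 0.0212, edgeR) and Kdelr3 by 0.87 (SE 0.21, adjusted p = 0.0287), each in 3 of 3 libraries. These were 2 of 38 members, where 3.39% of all genes tested were called lower and 6.37% in either direction. The libraries did not overlap for 6 members that were lower (9.15% of all genes) and for 1 that was higher, Kctd17 (10.2% of all genes). No member was called higher by edgeR (2.98% of all genes), none at an unadjusted p under 0.05 and none by DESeq2. Same-numbered libraries deviated together in this comparison, and with the replicate number as a block 6 members were called lower, where the share of all genes called lower rose too, to 6.91%. The members called beside Rbfox2 and Kdelr3 were Zfp7 (-0.33, adjusted p = 0.0642), Sh3bp1 (-0.41, adjusted p = 0.0313), Eif3d (-0.17, adjusted p = 0.0985) and Eif3l (-0.18, adjusted p = 0.0968). Fitted on the compared libraries only, neither Rbfox2 (adjusted p = 0.13) nor Kdelr3 (adjusted p = 0.203) passed, and over all alternatives the adjusted p ranged from 0.000822 to 0.13 for Rbfox2 and from 0.00115 to 0.203 for Kdelr3. The Kdelr3 call was also lost without Stag2-KO siGLO replicate 3 (adjusted p = 0.127, edgeR) or Stag2-KO siStag1 replicate 2 (0.115).

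The effect of siStag1 in Stag2-KO cells was then compared with that in WT cells. The difference was 0.08 (SE 0.11, adjusted p = 0.999, edgeR) for Rbfox2 and -0.69 (SE 0.29, adjusted p = 0.725) for Kdelr3. None of the 38 members passed, and 1 had an unadjusted p under 0.05, where 0.159% of all genes tested were called. DESeq2 was not run on this difference. The fit held no replicate block, although same-numbered libraries deviated together in both siStag1 comparisons. The lack of calls therefore holds only for the fit without the block.

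With both STAG proteins lowered, Stag2-KO siStag1 against WT siGLO, the member median was 0.01 and 12 of 38 members were called, where 43.9% of all genes tested were. Kdelr3 fell by 2.32 (SE 0.21, adjusted p = 5.78e-07, edgeR), the lowest value of any member in the 6 comparisons. Tmem184b fell by 0.63 (adjusted p = 0.000129, edgeR), Rbfox2 by 0.39 (adjusted p = 0.00105), Sh3bp1 by 0.85 (adjusted p = 0.00177) and Csnk1e by 0.54 (adjusted p = 0.00495). Cdc42ep1, Zfp7 and Maff were also called lower, and the 8 compare with 21.3% of all genes. Kctd17 rose by 0.67 (adjusted p = 0.000284, edgeR), with Foxred2, Micall1 and Pick1 also called higher, 4 against 22.6% of all genes. The calls for Maff, Micall1 and Pick1 were lost in 3 of 6 fits that left out 1 library each, with an adjusted p of 0.105 to 0.322. They were lost without WT siGLO replicate 2 (all 3 genes), WT siGLO replicate 1 (Micall1) or 3 (Maff), and without Stag2-KO siStag1 replicate 3 (Maff and Micall1), 1 or 2 (Pick1). This comparison shares its WT siGLO libraries with the preceding WT and Stag2-KO ones.

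Several members act in complexes or families whose other genes lie elsewhere in the genome, and those partner genes were not part of the choice. Of 102 tested partners in 9 lists, 7 were called lower and 12 higher in Stag1-KO siGLO against WT siGLO, and their median was 0.01. In the eIF3 complex, whose members Eif3d and Eif3l stood at -0.74 and -0.81, the 10 tested partners ranged from -0.23 (Eif3e) to 0.28 (Eif3b), with a median of 0.12. None of the 10 was called by edgeR, 1 had an unadjusted p under 0.05 and none was called by DESeq2. Eif3e and Eif3h lie on chromosome 15 too, outside the interval, and were at -0.23 (SE 0.099) and 0.11 (SE 0.078). Among RNA polymerase II subunits, Polr2f stood at -0.65 and the 11 partners had a median of -0.05, of which Polr2c alone was called, at -0.31 (SE 0.087, adjusted p = 0.0253, edgeR).

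**Figure D4:**
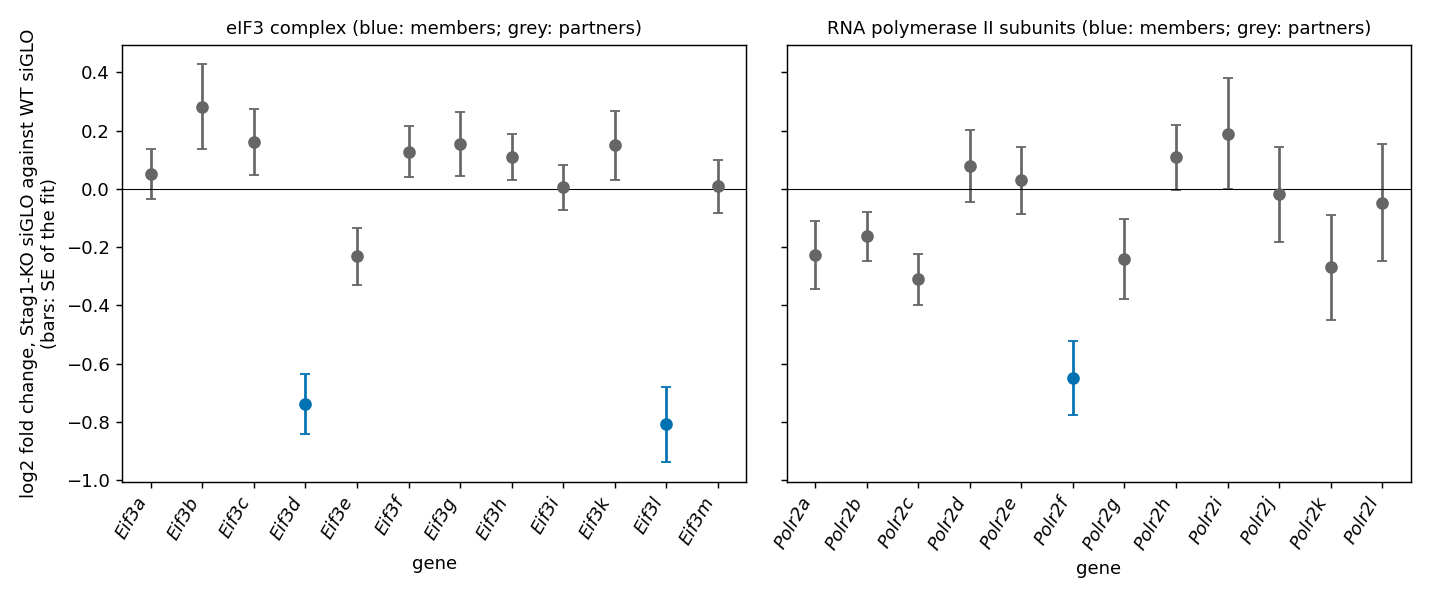
Log2 fold change in Stag1-KO siGLO against WT siGLO (vertical axis, bars for the SE of the fit) of eIF3 and RNA polymerase II subunits, with members in blue and partners encoded outside the interval in grey. Eif3d, Eif3l and Polr2f stand at -0.74, -0.81 and -0.65, below all grey points, the lowest of which is Polr2c at -0.31.

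The mitochondrial thioredoxin and peroxiredoxin partners of Txn2 had a median of 0.03 over 6 genes and a range of -0.13 to 0.12. None of them was called by edgeR or DESeq2 or had an unadjusted p under 0.05. Among 6 partners of Tst and Mpst in sulfide and cysteine metabolism, Ethe1 rose by 0.48 (SE 0.16, adjusted p = 0.0525, edgeR) and Got2 fell by 0.20 (SE 0.073, adjusted p = 0.0805). In the IFT-B complex of Ift27, 13 partners had a median of 0.05: Ttc26 fell by 0.41 (SE 0.13, adjusted p = 0.0454, edgeR), Ift88 fell by 0.29 (SE 0.11, adjusted p = 0.0937) and Ift20 rose by 0.36 (SE 0.099, adjusted p = 0.0233). Of 12 large ribosomal subunit partners of Rpl8, Rpl13 alone was called, with a fall of 0.22 (SE 0.076, adjusted p = 0.0623, edgeR).

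In non-muscle myosin II, the complex of Myh9, Myl9 rose from 69.2, 67.1 and 44.5 to 401, 377 and 381 normalized counts, by 2.68 (SE 0.22, adjusted p = 1.2e-06, edgeR). The light chains Myl6 and Myl12a rose by 0.34 (SE 0.095, adjusted p = 0.0261, edgeR) and 0.42 (SE 0.12, adjusted p = 0.0258), and the 6 partners had a median of 0.31. No gene of this list was called lower by edgeR or DESeq2 or had an unadjusted p under 0.05 in that direction.

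Paralogs of the members had a median of -0.08 over 28 genes. Kdelr2, a paralog of Kdelr3, fell by 0.28 (SE 0.073, adjusted p = 0.0174, edgeR), and Tmem184c, a paralog of Tmem184b, by 0.32 (SE 0.095, adjusted p = 0.0362). Csnk1d, a paralog of Csnk1e, rose by 0.24 (SE 0.071, adjusted p = 0.0356, edgeR). Also called higher were Mafk, Lfng and Rbfox3, paralogs of Maff, Mfng and Rbfox2. The share of all genes called was 9.93% lower and 10.1% higher, beside 7 and 12 of the 102 partners. The calls for 3 of the 19, Myl9 and Kdelr2 among them, held in each of the 6 fits that left out 1 library, and each of the other 16 was lost in at least 1 of them, with an adjusted p of 0.101 to 0.316 (edgeR) and with each of the 6 libraries involved.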

How the data were processed

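PolyA RNA-seq was performed on 15 libraries of mESCs, and per the labels the authors aligned reads to mm10 with STAR. The authors deposited raw counts per gene, 1 file per library. The counting tool, its annotation and its strand setting are not given in the sources used here. Each file carries 4 summary rows, which were left out. The 39 members and all gene lists were chosen with earlier results of these data known.

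The deposited counts were fitted with edgeR 4.0.16 (R 4.3.3): filterByExpr (minimum count 10, minimum total 15), TMM, glmQLFit with a coefficient for each condition over the 15 libraries, and two-sided glmQLFTest contrasts. Adjustment was Benjamini-Hochberg over all 14508 genes tested, and the threshold was 0.1. The method was tested on simulated data. The difference between siStag1 effects was added after seeing the data. The study gives 3 replicates of 1 clone per knockout genotype, from cells plated in wells, and its supplement calls the WT and knockout replicates biological. Whether wells, passages or days set them apart is not given in the sources used here, so p-values measure the spread between these libraries and intervals cover no other clone. No pair of replicates agreed within sampling noise (chi-square per degree of freedom 4.52 to 25.2 in 15 pairs).

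Same-numbered libraries deviated together in 4 comparisons, where every pair correlated at over 0.1 across 12874 genes: Stag1-KO siGLO against WT siGLO (0.191 to 0.312) and against Stag2-KO siGLO (0.255 to 0.291), WT siStag1 against WT siGLO (0.224 to 0.53) and Stag2-KO siStag1 against Stag2-KO siGLO (0.285 to 0.723). The pairing rests on these correlations and the numbers in the labels.

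Positions came from GENCODE on GRCm38, which is mm10, and 23055 of 23412 genes were placed. Values in every library are given for the 10 most abundant members, the 5 lowest and 5 highest in Stag1-KO siGLO, and up to 6 called members with the smallest p in each comparison without that clone. Of the genes outside the list, the 4 nearest each edge, those tested inside the interval and up to 3 called partners per list are named; further genes named were chosen after their values were seen. The genes of 1 partner list are counted in the totals and not reported here. Alternatives were other scalings, DESeq2 1.42.0, other filters, a threshold of 0.05, fits on the compared libraries only, the replicate block and leaving out each library.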

Additional observations from a re-analysis of the deposited data

How the results depend on the processing

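Across DESeq2, DESeq2 size factors, library size alone, both filters, the compared libraries only and the replicate block, the member median in Stag1-KO siGLO against WT siGLO stayed near its value of -0.71, at -0.73 to -0.64 without single libraries and -0.70 with the replicate block. With the replicate block, 1 member was called higher there (0 without it) and 6 members were called lower in Stag2-KO siStag1 against Stag2-KO siGLO (2 without it), while the share of all genes called lower there rose from 3.39% to 6.91%. Fitted on the compared libraries only, these counts were 1 and 0, and 3 partners were called lower, as against 7. At an adjusted p of 0.05, 2 members were called higher in Stag2-KO siGLO and 4 partners lower, and 4 partners were lower with no expression filter. The shares of all genes called under these last settings are not given here, so nothing is read from their counts. The member median in Stag2-KO siStag1 against Stag2-KO siGLO (-0.06) was -0.0451 with library size alone, -0.0821 with no filter and -0.0831 with at least 10 counts in every library, and against WT siGLO (0.01) it was -0.0389 with the latter filter. Causes were not tested.

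Without single libraries, the median was -1.11 to -0.86 for interval genes outside the list, 0.14 to 0.24 for the 20 genes before Zfp7, 0.0409 to 0.151 for the 20 after Dmc1, -0.0586 to 0.013 for members in WT siStag1, 0.0186 to 0.0699 in Stag2-KO siGLO and -0.0951 to -0.0354 in Stag2-KO siStag1 against Stag2-KO siGLO. Members called lower were 0 to 1 in WT siStag1 and 1 to 3 in Stag2-KO siStag1 against Stag2-KO siGLO. Members called higher were 1 to 3 in Stag2-KO siGLO and 2 to 4 in Stag2-KO siStag1 against WT siGLO. Partners called were 3 to 8 lower and 4 to 12 higher, with 4 higher without Stag1-KO siGLO replicate 1 and 3 lower without that library or WT siGLO replicate 2, and with the replicate block they were 9 lower and 16 higher, where 15.3% of all genes were called lower and 15.3% higher. The 3 libraries per condition and the low counts of Elfn2, Slc16a8, Baiap2l2 and Cyth4 limit the precision of those members.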

Other observations

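Of the 7 partner genes called lower in Stag1-KO siGLO against WT siGLO, 4 (Polr2c, Rpl13, Got2 and Tmem184c) lie on chromosome 8. The median log2 fold change over the 761 tested genes of that chromosome was -0.19. Over each of the other autosomes and the X chromosome it lay between -0.05 and 0.04, chromosome 15 among them at 0.02 over 571 genes. Whether these values are related was not tested.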
